A study of Mus musculus with 59 samples.

Results

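In ad libitum fed mouse liver the peaks of PPARα and PPARδ were compared as 2 deposited ChIP-seq lists, one per receptor. The fed PPARα list held 21410 peaks and the fed PPARδ list 7328, together 28738 of the 102931 peaks in the 7 lists of the series. A peak of one receptor was matched to the other where the peak centers lay at most 200 bp apart, and matched peaks were joined into 1 site. This gave 5899 sites shared by both receptors, 15511 sites called for PPARα only and 1429 sites called for PPARδ only.

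The study mapped BCL6, PPARα and PPARδ in livers of ad libitum fed and overnight fasted mice. Both fed PPAR lists came from male C57BL/6 mice of wild type genotype, with 3 livers from separate animals for each receptor and no treatment other than free access to food. PPARα was precipitated with a commercial rabbit polyclonal antibody and PPARδ with a custom guinea pig polyclonal antibody. Fed BCL6, fasted PPARα and fasted PPARδ lists of the same strain, and a fed BCL6 list of floxed *Bcl6* fl/fl mice, served for comparison. Each list combines 3 replicates and gives positions only, so no value has an error between livers, peak strength is not known, and the part of peak strength, antibody and read depth in any difference between the lists was not tested.

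PPARα and PPARδ are nuclear receptors that bind fatty acids and pair with a retinoid X receptor (RXR) on DNA. The pair reads a direct repeat of the hexamer AGGTCA with 1 base between the copies, called DR1, and PPAR pairs also favor an A and T rich stretch just before the repeat. PPARα is best known in liver for driving fatty acid oxidation and ketone body production in fasting, whereas PPARδ is found in many tissues and has been tied in liver to glucose and lipid handling.

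Sequences from the regions that the study examined by ChIP-qPCR show the DNA at the peaks of well-known target genes. Of these 15 regions near 13 genes, all 15 held a fed PPARα peak and 14 a fed PPARδ peak. The exception was *Acot3* +1140, where the nearest fed PPARδ center was 10758 bp away. The study describes its ChIP-qPCR regions as sites shared by BCL6 and PPARα, so the PPARα count follows from that choice. It also measured PPARδ by ChIP-qPCR at such sites, so the PPARδ count is not independent of the choice either. All 15 regions held a fed BCL6 peak. Over all fed PPARα peaks, with or without BCL6, 27.6% had a PPARδ center within 200 bp, which is not a like comparison. The best match to DR1 within 100 bp of the peak center is given in capitals with 8 reference bases on either side, 5′ to 3′ on the strand of the repeat, in coordinates of mm10 (GRCm38). The repeat was allowed up to 2 mismatches elsewhere in the text, and most best matches shown here and for promoters below have more. In 200 bp windows lying 1000 bp from PPARα peaks, 3.31% held the repeat with up to 2 mismatches and 19.7% with up to 3. Capitals with 3 or more mismatches therefore mark the best match only and do not show a DR1. Some of the regions are shown. The number after each gene is the distance from the TSS in bp as the study names the region.
Abhd2 +37143, chr7:79310367-79310395, minus strand, intron, 3 mismatches: aaagtctaAAGGCAAAGGACAaaccagga
Acot2 -6081, chr12:83981745-83981773, plus strand, intron, 2 mismatches: gaaaaattAGGGCAAAGGTAAaggttggt
Acot3 +1140, chr12:84053282-84053310, plus strand, 5′ UTR, 5 mismatches: cacgtaccAAGTTGTAAGACAagattaat
Acot4 +4073, chr12:84042487-84042515, plus strand, intron, 3 mismatches: gtcaaataAAGCCATGGGTCAgattcact
Acot4 -5338, chr12:84033064-84033092, plus strand, intergenic, 4 mismatches: ctgcatcaGAGGCAAAGGTCTtggcaagg
Angptl4 +2159, chr17:33779289-33779317, plus strand, intron, 2 mismatches: gggaaagtAGGAGAAAGGTCActggggga
Bdh1 -22923, chr16:31399367-31399395, minus strand, intergenic, 2 mismatches: aggaaaacAACTCAAAGGTCAgggttacc
Cd36 +12099, chr5:17876862-17876890, minus strand, intron, 3 mismatches: ctgctctcAGCATAAAGGTCAaactcctt
Cyp4a31 +7668, chr4:115575512-115575540, minus strand, intron, 4 mismatches: attctgttAGGAAAGAGTGCAaatgtggg
Ehhadh +4817, chr16:21782988-21783016, minus strand, intron, 4 mismatches: gggttaaaGGGTGAAAAGTGActggggga
Fads2 -20953, chr19:10122439-10122467, minus strand, intergenic, 3 mismatches: tgccaggtAGGGCCAAGGGCAgaggcaca
Idh2 -14059, chr7:80129428-80129456, plus strand, intergenic, 4 mismatches: atatgtgtGGGCCAAAGGGGAgcttggcc
Por +1532, chr5:135690688-135690716, minus strand, intron, 3 mismatches: ccactagcAAGGCAAAGATCAacagagaa
At *Bdh1*, an enzyme of ketone body interconversion, *Angptl4*, a secreted lipase inhibitor, and *Cd36*, a fatty acid receptor, the second copy of the hexamer was intact. At *Acot3*, a peroxisomal acyl-CoA thioesterase and the region without PPARδ, the best match had 5 mismatches and lay in the 5′ UTR.

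Promoters with a PPARδ-only site near genes of metabolism, receptors or other lists described below are shown in the same way, with the distance of the site from the TSS in bp. They are shown because PPARδ was called there and PPARα was not called within 200 bp.
Apom -150, chr17:35131944-35131972, minus strand, promoter, 5 mismatches: ggcctcagAGTCACTGGGTCAtgcccggg
Nr1i2 -368, chr16:38295184-38295212, minus strand, promoter, 4 mismatches: gaactgcaAGGTCATACCTGTctcgaagc
Pcx -363, chr19:4593967-4593995, minus strand, promoter, 2 mismatches: catgatggAGGGCAAGGGTCAcattagcc
Rps19 -40, chr7:24884623-24884651, minus strand, promoter, 4 mismatches: tgccagccAGGGGAAAGGGAAcgacgggg
Rxra 82, chr2:27710721-27710749, plus strand, intron, 2 mismatches: tctatcagGGGTCATGGGTCAgagggcat
Slc27a1 -410, chr8:71568438-71568466, plus strand, promoter, 3 mismatches: tggggcaaAGGGCACAGGAGAtgttccag
Thrsp -259, chr7:97417863-97417891, plus strand, promoter, 4 mismatches: cctcctaaCGCACACAGCTCActtcttca
At *Pcx*, which makes oxaloacetate for gluconeogenesis, and at *Rxra*, the partner of both receptors, the repeat had 2 mismatches. At *Apom*, an apolipoprotein, the best match had 5 mismatches. At *Rps19*, a ribosomal protein, *Thrsp*, a regulator of lipogenesis, and *Nr1i2*, the xenobiotic receptor PXR, the best match had 4.

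Most PPARδ peaks coincided with PPARα, and most PPARα peaks had no PPARδ peak. Of the PPARδ peaks, 5899 of 7328 or 80.5% had a PPARα center within 200 bp (95% Wilson confidence interval 79.6 to 81.4%), and of the PPARα peaks 27.6% had a PPARδ center. These shares describe the rule that made the classes and were not tested. All 22839 sites held at most 1 peak of each receptor. With 7328 PPARδ peaks for 21410 PPARα peaks, most PPARα peaks had to lack a PPARδ peak wherever the peaks lay. The size of the lists thus limits the share of PPARα peaks with PPARδ. Across 20 chromosomes, Y left out, the share of PPARδ peaks with PPARα ran from 74.0 to 83.7% with a median of 80.8%. Intervals given with shares cover counting error only.

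Where both receptors were called, their centers nearly coincided. The median distance was 25 bp, with quartiles of 11 and 44 bp, and 96.7% of the matched PPARδ centers lay within 100 bp of PPARα. The limit of 200 bp fell in a thin part of this distribution, with 40 PPARδ peaks between 150 and 200 bp and 32 between 200 and 250 bp. For PPARδ-only sites the median distance to a PPARα center was 9980 bp, with quartiles of 1917 and 46531 bp. Of these 1429 sites, 259 (18.1%) had a PPARα center within 1000 bp and 717 within 10 kb.

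**Figure D1:**
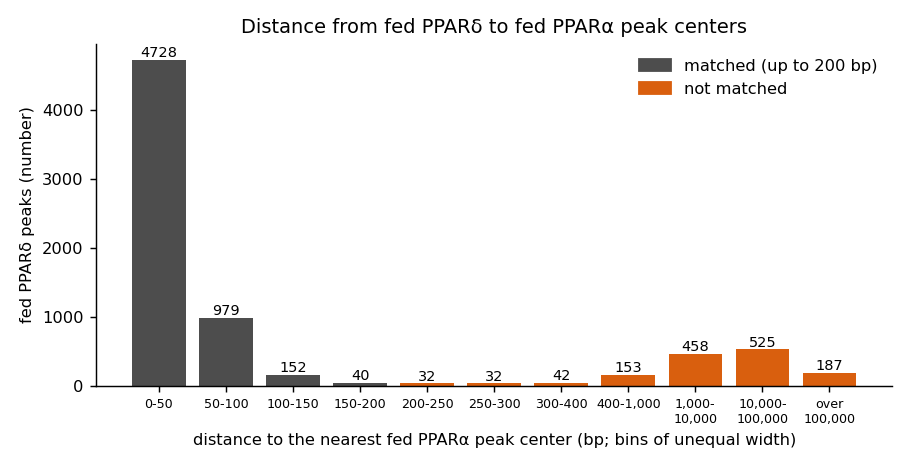
Number of fed PPARδ peaks by distance from the peak center to the nearest fed PPARα center, in bp with bins of unequal width; gray bars were matched and orange bars were not. A total of 4728 peaks lie within 50 bp, and the counts on either side of the 200 bp limit are 40 and 32.

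Shared sites lay in promoters less often than PPARα-only sites. With a promoter taken as 1000 bp upstream to 100 bp downstream of a RefSeq TSS, 351 of 5899 shared sites were in promoters (5.95%, 5.37 to 6.58%), against 1570 of 15511 PPARα-only sites (10.1%, 9.66 to 10.6%) and 123 of 1429 PPARδ-only sites (8.61%, 7.26 to 10.2%). Shared sites differed from PPARα-only sites with an odds ratio of 0.56 (adjusted p = 1.36e-22, from a two-sided exact test of Fisher over sites) and PPARδ-only from shared sites by 1.49 (adjusted p = 0.000588). For PPARδ-only against PPARα-only sites the odds ratio was 0.84 with a 95% interval of 0.69 to 1.01 (adjusted p = 0.0721). The share of shared sites in promoters was higher than that of PPARα-only sites on 0 of 20 chromosomes, and PPARδ-only sites exceeded shared sites on 14. Sites stand in these tests as units although they are not replicates. The difference between PPARδ-only and shared sites passed no threshold once the 719 PPARδ-only sites with a fasted PPARα peak were left out (odds ratio 1.25, adjusted p = 0.158), when 7.32% of the remaining 710 were in promoters.

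Away from promoters, introns held 49.0% of shared, 47.9% of PPARα-only and 50.7% of PPARδ-only sites, and intergenic sequence 42.0% (40.7 to 43.3%), 38.7% (37.9 to 39.4%) and 36.1% (33.7 to 38.6%). Coding exons held 1.20% (0.955 to 1.52%), 1.29% (1.12 to 1.48%) and 2.24% (1.59 to 3.14%), and 3′ UTRs 1.0, 1.3 and 1.4%. The median distance to the nearest protein-coding TSS was 20895 bp for shared, 20400 bp for PPARα-only and 18722 bp for PPARδ-only sites. Inside promoters the position differed. Of the PPARα-only promoter sites 48.6% were within 100 bp of the TSS (46.1 to 51.1%), of the shared ones 31.6% (26.98 to 36.7%) and of the PPARδ-only ones 36.6% (28.6 to 45.4%).

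The promoters with shared sites were less often CpG-rich. A TSS was called CpG-rich where the 1000 bp around it had an observed over expected CpG ratio above 0.75 and a GC content above 55%, which held for 26.7% of 26208 protein-coding TSS. Among promoter sites, 62 of 351 shared (17.7%, 14.0 to 22.0%), 547 of 1570 PPARα-only (34.8%, 32.5 to 37.2%) and 38 of 123 PPARδ-only (30.9%, 23.4 to 39.5%) were at CpG-rich TSS. Shared promoters were less often CpG-rich than PPARα-only promoters (odds ratio 0.40, adjusted p = 3.14e-10), and PPARδ-only promoters more often than shared ones (2.08, adjusted p = 0.00448). PPARδ-only and PPARα-only promoters gave an odds ratio of 0.84, with an interval of 0.56 to 1.24 that also spans a difference in either direction (adjusted p = 0.431).

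**Figure D2:**
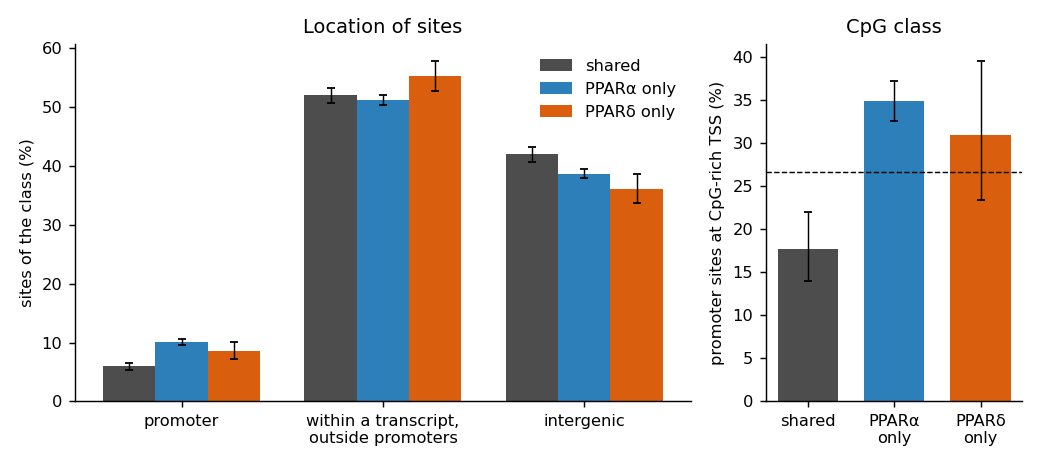
Left, percent of shared, PPARα-only and PPARδ-only sites in promoters, within transcripts outside promoters, and in intergenic sequence; right, percent of promoter sites at CpG-rich TSS, with all protein-coding TSS as a dashed line at 26.7%. Bars are shares with 95% Wilson intervals, and shared promoter sites sit lowest in both promoter plots.

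At some genes with a PPARδ-only promoter site, PPARα was called nearby, closer to the TSS. *Pcx* had PPARδ at −363 bp from the TSS and PPARα at −50 bp, 313 bp apart. *Nr1i2* had PPARδ at −368 bp and PPARα at −36 bp, 332 bp apart. These are pairs just outside the 200 bp limit, and 31 of the 123 PPARδ-only promoter sites (25.2%, 18.4 to 33.5%) had a PPARα center within 1000 bp, against 228 of 1306 elsewhere (17.5%, 15.5 to 19.6%). Others stood alone. *Slc27a1*, a fatty acid transporter, had its site at −410 bp with the nearest PPARα center 56675 bp away, and it was called in the fasted PPARδ list too. The site 82 bp downstream of an *Rxra* TSS was 28324 bp from PPARα.

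DR1 was more frequent at PPARα peaks that PPARδ shared. The repeat with up to 2 mismatches was searched on both strands in the 50 bp around each peak center. It was found at 381 of 5899 PPARα peaks with PPARδ (6.46%, 5.86 to 7.11%) and at 517 of 15511 without (3.33%, 3.06 to 3.63%), which gave odds 2.0 times as high (adjusted p = 4.43e-21 by Fisher's exact test, over 34 tests). Among PPARδ peaks it was found at 420 of 5899 with PPARα (7.12%, 6.49 to 7.80%) and 126 of 1429 without (8.82%, 7.46 to 10.4%), an odds ratio of 0.79 that missed the threshold (adjusted p = 0.111). Windows 1000 bp to either side held it at 0.710% of PPARα and 0.635% of PPARδ positions, the reversed letters gave 0.661 and 0.651% at PPARα peaks, and 0.370% of windows of this length at protein-coding TSS held it.

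In promoters DR1 was at 22 of 351 PPARα peaks with PPARδ (6.27%, 4.18 to 9.31%) and 18 of 1570 without (1.15%, 0.726 to 1.81%), an odds ratio of 5.77 (adjusted p = 4.88e-06). Of the PPARδ-only promoter peaks, 9 of 123 held it (7.32%, 3.90 to 13.3%). Outside promoters the shares were 6.47% and 3.58% for PPARα peaks and 7.01% and 8.96% for PPARδ peaks, each given with the partner first. With 1 mismatch or none in 200 bp around the center, 4.31% of shared and 2.45% of other PPARα peaks, and 4.20% of shared and 5.39% of other PPARδ peaks, held the repeat. Median GC content over 200 bp was 47.5% at shared peaks of either list, 46.5% at PPARα-only and 48.5% at PPARδ-only peaks.

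**Figure D3:**
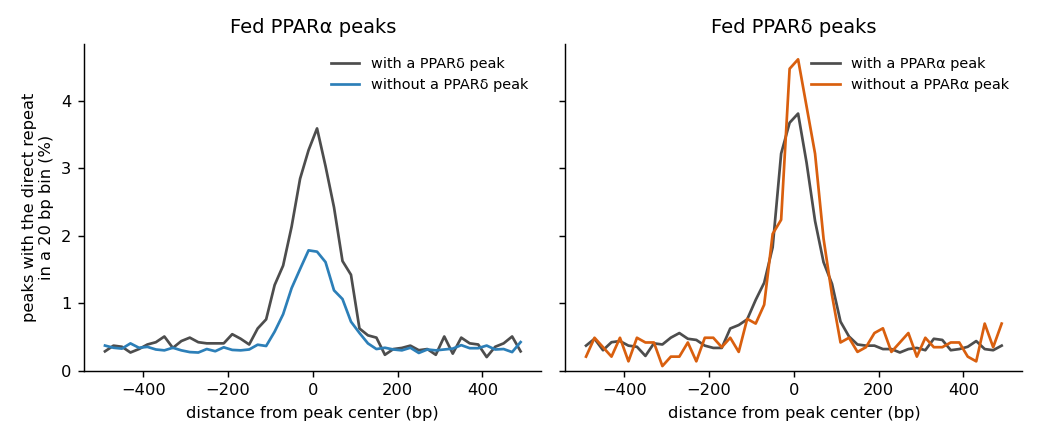
Percent of peaks with DR1 (up to 2 mismatches) in each 20 bp bin by distance of the bin from the peak center in bp, for PPARα peaks (left) and PPARδ peaks (right), split by a partner peak within 200 bp. Each curve peaks at the center, and the PPARα peaks without PPARδ are the lowest of the 4.

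Of the spacings searched, 1 base was the most frequent in each class. With the same 2 mismatches, a spacer of 1 base was found at 7.12% of shared and 8.82% of other PPARδ peaks, while direct repeats with a spacer of 0 were at 2.73 and 2.03% and those with 2 bases at 2.36 and 2.10%. Spacers of 3 to 5 bases were at 1.05 to 1.68% of the PPARδ peaks. In PPARα-only peaks the spacer of 1 base was found at 3.33%, a spacer of 0 at 1.75% and one of 2 bases at 1.51%.

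Some of the bases just before the repeat also differed between classes. On the strand of the repeat, the base next to it on the 5′ side was T in 43.7% of 126 DR1 matches at PPARδ-only peaks (35.3 to 52.4%), in 35.7% of 420 at shared PPARδ peaks (31.3 to 40.4%), in 36.0% of 381 at shared PPARα peaks and in 16.1% of 517 at PPARα-only peaks (13.1 to 19.5%). In matches 1000 bp away from PPARα peaks it was T in 17.4%. The fourth base before the repeat was A in 55.6% at PPARδ-only peaks (46.8 to 63.9%) and in 28.6% at PPARα-only peaks (24.9 to 32.7%). The third was A in 43.7% (35.3 to 52.4%) and 21.1% (17.8 to 24.8%). The second was C in 26.2% (19.3 to 34.5%) and 22.1% (18.7 to 25.8%), with overlapping intervals. G was the more frequent second base at PPARδ-only peaks, in 34.1% (26.4 to 42.8%). At least 3 of the 4 letters AACT stood before the repeat in 30 of 126 matches at PPARδ-only peaks (23.8%, 17.2 to 32.0%), in 66 of 420 at shared PPARδ peaks (15.7%, 12.5 to 19.5%) and in 25 of 517 at PPARα-only peaks (4.84%, 3.30 to 7.04%). In matches 1000 bp away from PPARα peaks the share was 2.30% (1.12 to 4.68%). These letters were looked at after the matches had been collected and carry no test.

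The ETS element, the GC box and the E-box were more frequent at PPARα peaks without PPARδ. The ETS element CCGGAAG was at 1.04% of PPARα peaks without PPARδ and 0.186% of those with it (adjusted p = 3.41e-11), and the GC box GGGCGG, read by SP and KLF factors, at 2.46 and 1.42% (adjusted p = 1.41e-05), with its reversed letters at 2.19 and 1.14%. The reversed letters of the ETS element were at 0.793 and 0.593% and those of the E-box at 1.15 and 1.15%. In promoters alone, the ETS element was at 6.31 and 0.570% and the GC box at 13.6 and 5.98%. Outside promoters the GC box passed no threshold, while the ETS element was at 0.452 and 0.162% (adjusted p = 0.0145). The E-box CACGTG of the clock and MYC families was at 1.21 and 0.661% (adjusted p = 0.00179). The single hexamer AGGTCA, which is part of DR1, went the other way, at 10.2% without and 13.5% with PPARδ (adjusted p = 1.36e-10). At protein-coding TSS, 4.35% of windows of this length held the ETS element, 17.3% the GC box, 1.81% the E-box and 1.87% the hexamer.

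PPARδ-only peaks held the FOXA element less often than shared PPARδ peaks. This element, TGTTTAC, read by the pioneer factors of hepatocytes, was at 1.26% of PPARδ-only and 2.61% of shared PPARδ peaks (adjusted p = 0.00838), where windows 1000 bp away had 0.614%. The HNF6 element TATTGAT was at 2.03 and 3.24% (adjusted p = 0.0580). The GC box was at 2.52 and 1.03% (adjusted p = 0.000312, which was lost outside promoters), with the reversed letters at 2.59 and 0.865%, and the CCAAT box of NFY at 5.67 and 7.76% (adjusted p = 0.0240), with the reversed letters at 8.0 and 9.0%. The elements of HNF4 (CAAAGTCCA), BCL6 (TTCCTAGAA with up to 1 mismatch), STAT (TTCNNNGAA), C/EBP (TTGCGCAA), NRF1 (GCGCATGCG), YY1 (AAGATGGCG), CREB (TGACGTCA), AP-1 (TGANTCA) and CTCF (AGGGGGC) passed no threshold in either list, and were in 0.0420 to 2.36% of windows at protein-coding TSS. The FOXA element was in 0.359, the HNF6 element in 0.149 and CCAAT in 6.13% of those windows. All these results are for 50 bp windows. In 100 bp windows HNF6 was at 4.27% of PPARδ-only and 6.20% of shared PPARδ peaks (adjusted p = 0.0194 by Fisher's exact test). In 200 bp windows it was at 6.02 and 9.31% (adjusted p = 0.00022). By the same test HNF6, STAT and NRF1 passed the threshold in the PPARα list in 200 bp windows (adjusted p = 0.00176, 0.0134 and 0.00746).

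Shared sites were the ones most often called again after fasting. A fasted PPARα peak lay at 95.1% of the PPARα peaks with PPARδ (5608 of 5899) and at 74.1% of those without (11488 of 15511), an odds ratio of 6.75 with an adjusted p of 4.17e-314 by Fisher's exact test. A fasted PPARδ peak lay at 21.8% of the PPARδ peaks with PPARα (1286 of 5899) and at 17.1% of those without (244 of 1429), an odds ratio of 1.35 (adjusted p = 6.53e-05). The fasted PPARδ list has only 2399 peaks and the fasted PPARα list 29085, and the depth behind either is unknown.

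Many PPARδ-only sites of fed liver carried PPARα in the fasted list. Of the 1429, 719 had a fasted PPARα peak (50.3%, 47.7 to 52.9%) and 580 had neither receptor called in fasted liver (40.6%, 38.1 to 43.2%). A fasted PPARδ peak lay at 223 of 15511 PPARα-only sites (1.44%, 1.26 to 1.64%). The fasted PPARδ list held 2399 peaks, fewer than these sites, and the fasted PPARα list 29085. The size of the lists limits these shares, so they cannot be compared with each other. DR1 was at 9.87% of the PPARδ-only peaks with fasted PPARα (7.90 to 12.3%) and at 7.75% of those without (6.00 to 9.95%), so the intervals overlap.

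BCL6, a transcriptional repressor, was called far less often where PPARδ stood alone. A fed BCL6 peak lay at 4004 of 5899 shared sites (67.9%, 66.7 to 69.1%), 6958 of 15511 PPARα-only sites (44.9%, 44.1 to 45.6%) and 213 of 1429 PPARδ-only sites (14.9%, 13.2 to 16.8%). Against PPARα-only sites the odds ratio was 2.60 for shared (adjusted p = 2.55e-202) and 0.22 for PPARδ-only sites (adjusted p = 1.37e-119), and the order held on each of 20 chromosomes. In promoters BCL6 was at 52.4% of shared, 19.4% of PPARα-only and 8.94% of PPARδ-only sites. The fed BCL6 list of *Bcl6* fl/fl livers gave 76.8, 47.2 and 19.2%. Of PPARδ-only sites, 35.1% had no fasted PPARα, fasted PPARδ or fed BCL6 peak, against 2.27% of shared and 16.6% of PPARα-only sites.

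**Figure D4:**
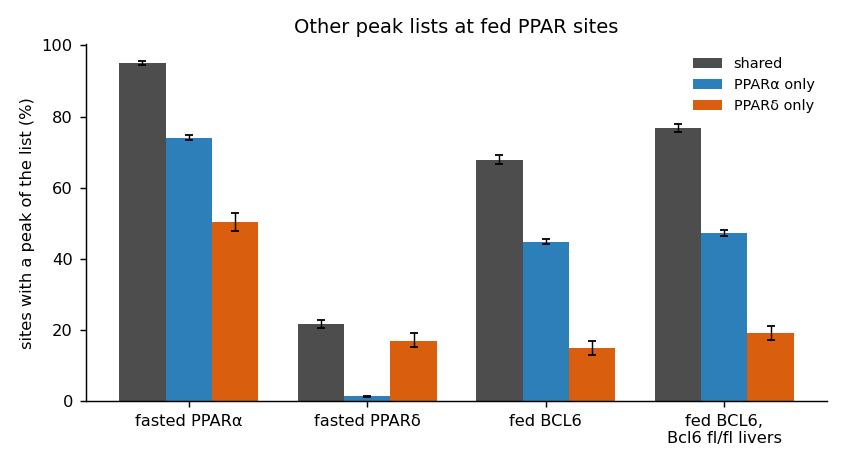
Percent of shared, PPARα-only and PPARδ-only fed sites with a peak center of another list within 200 bp, with 95% Wilson intervals. Shared sites are highest in all 4 lists, and PPARδ-only sites are lowest in the BCL6 lists at 14.9 and 19.2%.

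Each site was next given to the protein-coding gene with the closest TSS, up to 1 Mb away. Of 21000 such genes, 16.0% had a shared site, 31.4% a PPARα-only site and 5.99% a PPARδ-only site, and 1.41, 6.62 and 0.519% had one of each class in a promoter. These shares are the background for the gene groups below. A group's share was not tested, and the length of sequence nearest to a gene was not adjusted for. All 3 classes were present at 519 genes, and 310 genes had PPARδ-only sites and no other.

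Most genes of fatty acid use had a shared site. In 8 lists with 106 genes that cover oxidation, ketone bodies, thioesterases, uptake and lipid droplets, 78 genes had a shared site (73.6%), 57 a PPARα-only site (53.8%), 17 a PPARδ-only site (16.0%) and 15 no site. Among 16 genes of mitochondrial β-oxidation, 15 had a shared site and 2 a PPARδ-only site. *Acadm*, the medium-chain acyl-CoA dehydrogenase, had 2 shared sites, 1 of them at −288 bp from its TSS, 1 PPARα-only and 1 PPARδ-only site. *Hadh*, which acts later in the cycle, and *Eci2* had 4 shared and 2 PPARα-only sites each. *Acaa2*, the thiolase, had 3 shared, 7 PPARα-only and 1 PPARδ-only site.

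The carnitine shuttle, which moves fatty acids into mitochondria, had the largest part of its sites shared, 21 of 26 (80.8%), where 25.9% of all sites near genes were shared. *Cpt1a*, its rate-limiting enzyme, had 5 shared sites and no other. They lay at -2977, 2203, 3293, 10065 and 30545 bp from its TSS, and 1 of the 5, at 2203 bp, was also in the fasted PPARδ list. *Crot*, the peroxisomal transferase, had 5 shared and 2 PPARα-only sites, and *Slc22a5*, the carnitine importer, 4 shared, 1 PPARα-only and 1 PPARδ-only site.

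Of 16 genes of peroxisomal β-oxidation, 14 had a shared and 4 a PPARδ-only site. Of the sites near them 44.4% were shared, against 54.0% near the genes of mitochondrial β-oxidation, a difference that was not tested. *Ehhadh*, the bifunctional enzyme, had 3 shared and 7 PPARα-only sites with PPARα alone at its promoter, at −68 bp. *Abcd3*, *Acox2* and *Scp2* were among those with a PPARδ-only site, with 1 each. Among 12 genes of ω-oxidation, 8 had a shared site and 0 a PPARδ-only site, with 5 shared sites at *Por*, the electron donor of the P450 enzymes, 3 at *Cyp4a31* and 2 at *Aldh3a2*.

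Of 9 genes of ketone body metabolism, 5 had a shared, 6 a PPARα-only and 1 a PPARδ-only site. *Bdh1* had 3 shared and 3 PPARα-only sites, and *Acat1*, which joins or splits acetoacetyl-CoA, 3 shared and 1 PPARδ-only. The acyl-CoA thioesterases differed from one another. *Acot1* had 4 shared sites and *Acot3* 3 PPARα-only sites, with *Acot2* at 1 shared and *Acot4* at 2 shared and 2 PPARα-only sites. These 4 genes are near copies of one another and only uniquely placed reads were kept for either receptor. What this does to the peaks of either receptor there was not tested.

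Among uptake genes, *Acsl1*, which activates fatty acids, had 10 shared, 5 PPARα-only and 1 PPARδ-only site, and 3 of the shared sites were within 1000 bp of one of its start sites, at −713, −550 and 29 bp. *Cd36* had 3 shared and 2 PPARα-only sites. Of 19 genes of lipid droplets and lipases, 14 had a shared and 6 a PPARδ-only site (31.6%). That share was 5.99% over all genes and 33.3% for hepatocyte markers. The sites near the 19 genes were 29 shared, 20 PPARα-only and 6 PPARδ-only. The genes with a PPARδ-only site were *Abhd5*, *Hilpda*, *Lipe*, *Mgll*, *Plin4* and *Pnpla2*. *Pnpla2*, the first triglyceride lipase, had no shared site, and its PPARα-only and PPARδ-only sites were 626 bp apart in an intron. *Angptl4* had 3 shared and 1 PPARα-only site and *Vnn1*, a pantetheinase and classical PPARα target, 1 of each.

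Fuel switching genes had 63.6% of their sites shared. *Pdk4*, which shuts pyruvate out of oxidation, had 6 shared sites and 1 PPARα-only site, with 1 shared site at −258 bp that was also in both fasted lists. *Ucp3* had 2 shared and 1 PPARδ-only site, and *Idh2*, a mitochondrial dehydrogenase, 1 shared and 3 PPARα-only sites.

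Of 15 genes of de novo lipogenesis, 13 had a shared site and 14 a PPARα-only site, and 36.0% of the sites were shared, against 25.9% near all genes. *Elovl6* had 5 shared and 8 PPARα-only sites and *Thrsp* 1 of each class. Genes of cholesterol synthesis and uptake had a shared site at 5 of 17 (29.4%) and a PPARα-only site at 13 of 17 (76.5%). *Hmgcs1*, a synthase of the pathway, had 2 shared, 3 PPARα-only and 1 PPARδ-only site. Of 13 bile acid genes, 10 had a shared and 0 a PPARδ-only site, and *Cyp7a1*, the rate-limiting enzyme, had 4 shared and 4 PPARα-only sites. *Fads2*, a desaturase of polyunsaturated fatty acids, had 2 shared and 3 PPARα-only sites.

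PPARδ-only sites were found at several genes of glucose metabolism. Of 13 gluconeogenic genes 4 (30.8%) and of 16 genes of glycolysis and glycogen 5 (31.3%) had one, against 5.99% of all genes. These genes had a median of 7 and 3.5 sites of any class, against 0 over all genes. The gluconeogenic genes had 5 PPARδ-only, 30 shared and 45 PPARα-only sites. For glycolysis and glycogen the numbers were 9, 24 and 42, and over all genes 1428, 5899 and 15461. The PPARδ-only part of the sites near gluconeogenic genes was thus close to that over all genes. It was larger near genes of glycolysis and glycogen, which was not tested. Hepatocyte markers had a PPARδ-only site at a similar share of genes (33.3%). *Ppp1r3b*, which targets a phosphatase to glycogen in liver, had 4 PPARδ-only, 6 shared and 9 PPARα-only sites, and 2 of the PPARδ-only sites were 456 and 293 bp from PPARα. *Pcx* had 2 PPARδ-only sites, *Eno1* 2, and *Gbe1*, *Ldha*, *Aqp9*, *Gk* and *Ppargc1a* 1 each.

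They were also found near regulatory genes. Of 17 coregulators 7 (41.2%), of 17 insulin signalling genes 7 (41.2%) and of 18 clock genes 7 (38.9%) had one, against 5.99% of all genes. *Nrip1*, *Ppargc1b* and *Tbl1xr1* had 2 each, and *Bcl6* itself had 7 shared, 9 PPARα-only and 1 PPARδ-only site. *Pik3r1*, a subunit of the kinase below the insulin receptor, had 24 PPARα-only sites, the most of any gene, with 7 shared and 3 PPARδ-only sites, and *Irs2* had 21, 5 and 2. In the clock list, *Nr1d1*, *Per2* and *Tef* had PPARα-only and PPARδ-only sites and no shared site. The median number of sites of any class was 8 a gene in the insulin list, 3.5 in the clock list and 3 in the coregulator list, against 0 over all genes, and 5 of the 17 coregulators had no site. Sites near the coregulators were 10 PPARδ-only and 30 shared, near the insulin genes 13 and 46, and near the clock genes 7 and 27. Over all genes the numbers were 1428 and 5899. Shared sites made up 26.1, 27.5 and 26.2% of the sites near these lists, against 25.9% over all genes. The PPARδ-only part was thus close to that over all genes near the clock genes. It was larger near the coregulators, which was not tested.

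The genes of the receptors themselves had sites of different classes. *Ppara* had 6 shared, 8 PPARα-only and 1 PPARδ-only site, the latter 256 bp from PPARα, while *Ppard* had 1 PPARα-only site in an intron, with the nearest fed PPARδ center 205282 bp away. *Rxra* had 6 shared, 2 PPARα-only and 3 PPARδ-only sites, and *Esrra*, an orphan receptor, 1 PPARδ-only site and no other.

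The most sites of a class near single genes were as follows. *Plpp3*, a lipid phosphatase, had 14 shared sites, *Myc* 13, *Gadd45g* and *Rreb1* 12 each, and *Acsl1* 10, a number it shared with *Foxo1* and *Lpp*. After *Pik3r1*, the PPARα-only class was led by *Bcor*, *Irs2* and *Rora* with 21 each and *Arid1b* with 19. *Thrb*, a thyroid hormone receptor, led the PPARδ-only class with 5, next to 7 shared sites of its own, and *Arid5b*, *Dhrs3*, a retinal reductase, *Foxn3* and *Foxp1* had 4 each. Of the 4 sites at *Dhrs3*, 2 were in the fasted PPARδ list, and 1 of those 2 was in the fasted PPARα list.

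Genes of 2 housekeeping groups are given beside the shares over all genes. Of 36 genes of oxidative phosphorylation 3 had a shared, 9 a PPARα-only and 0 a PPARδ-only site, and of 42 ribosomal protein genes 2, 6 and 2. No site was near 26 of the 36 and 34 of the 42, against 63.5% of all genes. Marker genes of liver cell types are given in the same way, as gene lists only, because peak positions cannot check the tissue label. Of 15 hepatocyte markers 13 had a shared and 5 a PPARδ-only site, with 6 shared sites at *Alb*, while of 12 Kupffer cell and macrophage markers 1 had a shared and 0 a PPARδ-only site. Of 14 markers of endothelial and stellate cells 6 had a shared site (42.9%) and 1 a PPARδ-only site. Whole liver holds all these cells, and the lists do not say in which cell a site was bound.

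**Figure D5:**
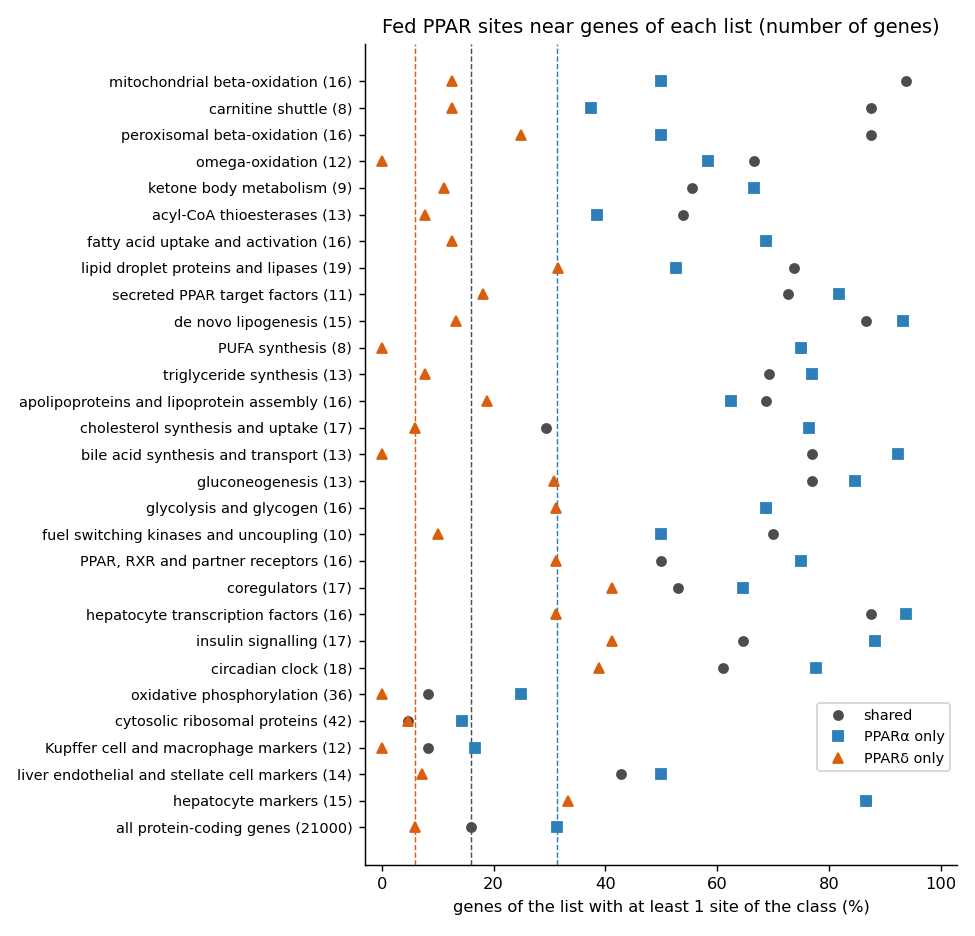
Percent of the genes in each list with at least 1 shared (gray circle), PPARα-only (blue square) or PPARδ-only (orange triangle) site, with the number of genes in parentheses and the shares over all 21000 genes as dashed lines at 16.0, 31.4 and 5.99%; where both shares are equal the square covers the circle. Shared sites reach 93.8% in mitochondrial β-oxidation, and PPARδ-only sites reach 41.2% in the coregulator and insulin lists.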

How the data were processed

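ChIP-seq peak lists of fed PPARα and fed PPARδ were compared, with 3 livers per list. The authors aligned reads with Bowtie to mm10, kept uniquely placed reads with 1 read per start, called peaks with HOMER on tags pooled over replicates against input, and kept peaks at least 2-fold enriched by DESeq2 on the individual libraries. The deposited lists hold positions in bp (start and end), with no score, count or replicate value. Peak scores, depth and the spread between livers were therefore not analysed here, and no interval includes them. Of 7 deposited lists 6 were used, and the fasted BCL6 list was not used here. The deposited tables do not state whether starts count from 0 or 1, so peak positions are given as listed.

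Centers within 200 bp were matched one to one. Sites were annotated with RefSeq transcripts of GRCm38, and each was assigned to the nearest protein-coding TSS within 1 Mb. Differences in shares were tested with Fisher's exact test, two-sided, and p-values were adjusted by the method of Benjamini and Hochberg over 3 promoter tests, 3 CpG tests, 34 element tests and 5 tests of fasted and BCL6 peaks, with a threshold of 0.05. Elements were searched on both strands in 50 bp, and AGGTCA overlaps DR1. The tests came from SciPy 1.17.1, arrays from NumPy 2.4.6 and plots from Matplotlib 3.10.9, all under Python 3.11.15, and the scripts were tested on simulated data. Sequences were read from the GRCm38 reference.

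Named genes were those with a track or ChIP-qPCR region in the study, the 5 with the most sites of each class (ties by symbol), and in each of 28 gene lists the 3 with the most sites and all with a PPARδ-only site. *Lpp* and the *Acot3* sequence fall outside this rule and were chosen after their values were seen. The members and lists were chosen with earlier results of these data known. Alternatives changed the matching distance, promoter and CpG definitions, element window and mismatches, masked sequence, promoter sites, gene reach and the BCL6 list. Results of some named genes are not reported here.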

Additional observations from a re-analysis of the deposited data

How the results depend on the processing

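With centers matched within 100 bp, 26.7% of PPARα and 77.9% of PPARδ peaks had a partner, and within 400 bp 81.9% of PPARδ peaks did. The promoter share of PPARδ-only against PPARα-only sites, which missed the threshold, passed it at 100 bp (odds ratio 0.80, adjusted p = 0.0162), at 400 bp (0.79, 0.0243), with TSS of coding genes only (0.80, 0.0385) and without sites that had fasted PPARα (0.70, 0.0223). It also did so with only sites over 1000 bp from PPARα, an alternative chosen after seeing the data (0.76, 0.0173). With promoters of 1000 bp on either side the odds ratio was 0.99 and with 5000 bp upstream to 1000 bp downstream 1.03. PPARδ-only against shared sites fell below the threshold without fasted PPARα (1.25, 0.158), where fewer sites were tested. DR1 at PPARδ peaks with against without PPARα passed the threshold in 100 bp windows (0.82, adjusted p = 0.0427), at 400 bp matching (0.76, 0.0412) and, chosen after seeing the data, with distant sites only (0.75, 0.0148). The number of other elements past the threshold rose from 4 to 7 in the PPARα list with 200 bp windows and fell from 3 to 1 in the PPARδ list in promoters only. Within 100 kb, 14.5% of coding genes had a shared site. Where not stated, the cause was not tested. The other 73 alternative values kept their side of the threshold or stayed within their interval or within 1.5 times the count. No paired analysis was possible because the lists are pooled over replicates. For the same reason replicates could not be left out, and without scores no stricter peak threshold could be tried.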

Other observations

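On the X chromosome 18.5% of 308 PPARα peaks had PPARδ and 74.0% of 77 PPARδ peaks had PPARα, the lowest of the 20 chromosomes in both shares. The PPARδ list had 2 peaks on Y, where PPARα had 0.

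DR1 was found at 122 of 1286 shared PPARδ peaks that were also in the fasted PPARδ list (9.49%, 8.00 to 11.2%) and at 298 of 4613 that were not (6.46%, 5.79 to 7.21%). Shared PPARδ peaks with fed BCL6 held it in 6.38% (5.66 to 7.18%) and those without in 8.68% (7.49 to 10.0%). PPARα-only peaks with BCL6 held it in 2.64% (2.29 to 3.05%) and those without in 3.89% (3.50 to 4.32%). These splits were made after seeing the data and carry no test.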
